A study of Sus scrofa with 20 samples.

Results

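Axon guidance ligand and receptor genes were examined in hippocampus of high-reactive (HR) and low-reactive (LR) German Landrace pigs. The members were chosen by gene symbol, namely the semaphorins, plexins, neuropilins, ephrins, Eph receptors, SLIT and ROBO genes, UNC5 genes, NTN1, NTN4 and DCC. Of 66 such genes named on the array, 58 passed the brightness filter (a mean over the 20 arrays of 5.53 log2 or more) and are described here, out of 10313 named genes that passed it. Each gene is given by its brightest probe set, which is 1 of the 122 probe sets of these genes above the filter.

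The data are 20 Affymetrix porcine Snowball arrays, 1 for each animal, from 10 HR and 10 LR pigs. The study reports that they were slaughtered some months after birth on average. The pigs were untreated by the labels, and both groups were German Landrace. Per the study's methods the pigs were picked as extremes of early-life coping behavior, scored from the struggling of a piglet held on its back (the backtest), and by their haplotypes at a coping behavior locus on chromosome 12. Behavior and haplotype therefore cannot be told apart in this comparison. The sources used here do not give the sex. The tissue was whole hippocampus, and each value comes from all its cells, so that fewer cells of a type and less RNA per cell cannot be told apart.

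Axon guidance genes encode signals and receptors by which growing axons find their way, and in the adult hippocampus many of them act at synapses and in blood vessels. Semaphorins signal through plexins, and the secreted class 3 semaphorins mostly need a neuropilin beside the plexin. Ephrins sit on the cell surface and bind Eph receptors on the neighbouring cell, SLIT ligands bind ROBO receptors, and netrins bind DCC, which attracts axons, or UNC5 receptors, which repel them.

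Markers of the tissue were present on the arrays. All 8 neuron markers, all 5 pyramidal cell markers and 4 of 5 dentate granule cell markers passed the filter, and the granule cell factor PROX1 had a mean of 8.39 log2. The summed level of the choroid plexus markers, given as the mean of 4 measured genes of 7 listed, varied most between arrays, from 6.25 to 8.10 log2 in HR and from 6.21 to 7.88 in LR. The first principal component of all 23861 filtered probe sets held 48.0% of the variance, and its ends were LR replicate 1 and HR replicate 5. Background controls rich in GC bases, made to match nothing in the pig, had a level of 7.31 ± 0.20 log2 in HR against 7.50 ± 0.20 in LR (SD over 10 arrays). The number in the sample title, whose meaning is not stated, averaged 2863 in HR and 2601 in LR. It exceeded every LR number in 9 of 10 HR pigs, the exception being HR replicate 1, so that it nearly coincides with the group.

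The comparison asked which of these genes differed between the HR and LR hippocampus. None of the 58 passed the adjusted threshold of 0.05 (limma), as was the case for all 23861 probe sets (0.00%), of which 2750 (11.5%) had an unadjusted p under 0.05. An unadjusted p under 0.05 was reached by 7 genes, of which 5 had the higher mean in HR and 2 in LR. Higher were the semaphorin genes SEMA5A and SEMA6A, the B-type ephrin gene EFNB2, the receptor gene EPHB1 and the repellent ligand gene SLIT2. Lower were the receptor gene EPHA8 and the secreted semaphorin gene SEMA3G. These 7 are 12.1% of the members, near the 10.5% of all named genes with such a p. The 5 higher genes are 8.62% against 7.10% of all named genes, and the 2 lower ones are 3.45% against 3.35%. With the sign of the difference alone, 19 members were higher in HR and 39 lower, or 32.8% higher against 44.4% of all named genes. The median difference (HR minus LR) was -0.05 log2 over the members and -0.02 over all named genes. The difference of every member with its interval is plotted by family.

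**Figure D1:**
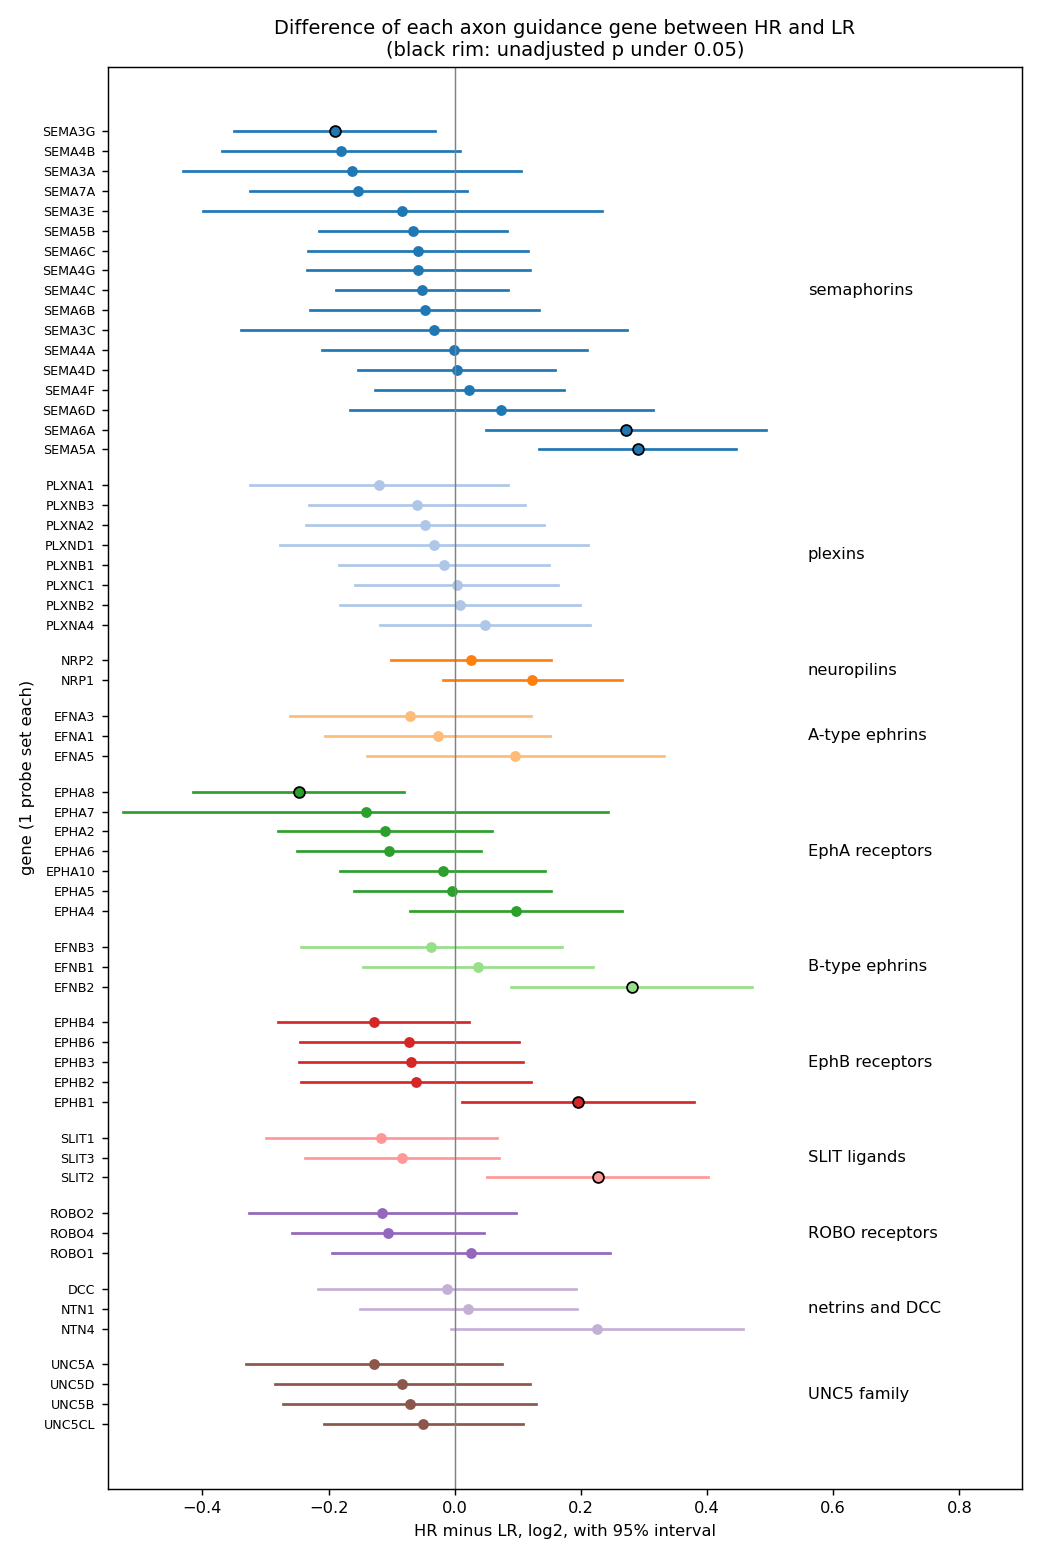
Difference HR minus LR in log2 (x axis) for the 58 axon guidance genes (y axis), grouped by family, with 95% intervals from limma; a black rim marks an unadjusted p under 0.05. The 7 rimmed genes lie between -0.25 and 0.29, and the intervals of the other 51 genes span 0.

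Among the semaphorins, 17 of 20 genes passed the filter, and 5 were higher and 12 lower in HR by sign, with a median of -0.05 log2. SEMA5A encodes a transmembrane semaphorin with thrombospondin repeats, whose loss in mice raises the number of synapses on dentate granule cells. Its log2 value ran from 8.85 over a median of 9.16 to 9.36 in HR and from 8.59 over 8.84 to 9.20 in LR. The groups overlapped, but all 10 HR arrays exceeded the LR median and 6 of 10 LR arrays were below the lowest HR array. The lowest HR array was replicate 1 and the highest LR array replicate 10. Means were 9.16 ± 0.14 (HR) and 8.87 ± 0.17 (LR; SD, n = 10 each), with a difference of 0.29 ± 0.08 log2 (SE), which is a fold of 1.22 (p = 0.000848, adjusted p = 0.275, limma). Of the 20 fits that left out 1 array, only the one without HR replicate 1 took SEMA5A past the threshold (difference 0.32, adjusted p = 0.0463, limma). In that fit 110 of all probe sets passed. In the other fits the adjusted p of SEMA5A ran up to 0.518.

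All 5 probe sets of SEMA5A passed the filter, and all were higher in HR. The other 4 differed by 0.22 to 0.40 log2, with unadjusted p from 0.000302 to 0.0242. The remaining genes among the 7 have 2 or 3 probe sets each.

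**Figure D2:**
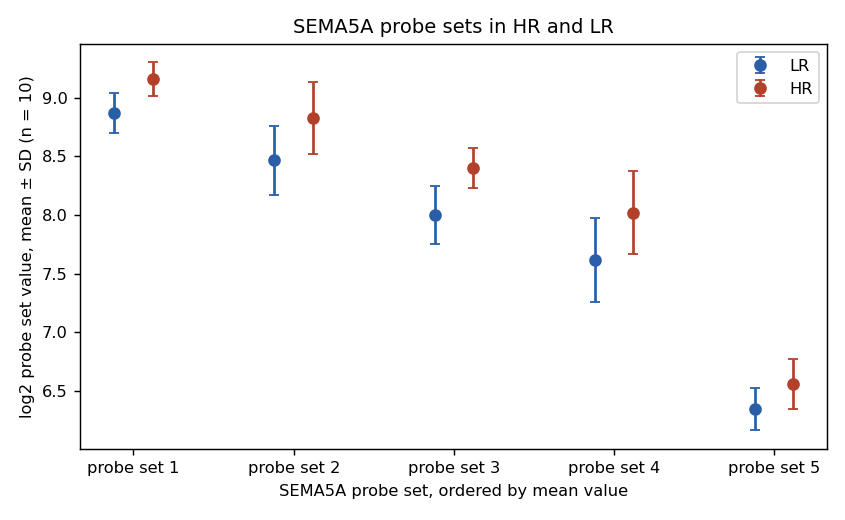
Mean log2 value with SD (y axis, n = 10 for each point) of the 5 SEMA5A probe sets in HR (red) and LR (blue), ordered on the x axis by their mean. The HR mean is above the LR mean in each of the 5, by 0.22 to 0.40 log2.

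SEMA6A encodes a transmembrane semaphorin that binds PLXNA2 and PLXNA4 and helps to place mossy fibers in the mouse hippocampus. Its values ran from 6.79 over a median of 7.34 to 7.54 in HR and from 6.66 over 6.94 to 7.36 in LR. The HR arrays fell into 6 at or above 7.33 and 4 at or below 7.09, and 8 of 10 exceeded the LR median. The difference was 0.27 ± 0.11 log2 (SE, p = 0.0185, adjusted p = 0.364), with a second, dimmer probe set below the filter at 0.26. SEMA3G, a secreted semaphorin that acts through NRP2, differed by -0.19 ± 0.08 (p = 0.0211, adjusted p = 0.372). It ran from 5.98 over 6.40 to 6.60 in HR and from 6.38 over 6.48 to 6.77 in LR, where 4 HR arrays lay below every LR array and the rest overlapped. The 2 other SEMA3G probe sets differed by -0.11 and -0.08.

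All 4 measured class 3 semaphorins were lower in HR by sign, with SEMA3A at -0.16 ± 0.13, SEMA3E at -0.08 ± 0.15 and SEMA3C at -0.03 ± 0.15 beside SEMA3G. Of class 4, which holds transmembrane ligands of B plexins, SEMA4B differed by -0.18 ± 0.09 (p = 0.0597) and 4 of 6 were lower by sign. SEMA4D, found on oligodendrocytes and a ligand of PLXNB1, did not differ beyond the spread (difference 0.0030 ± 0.08), nor did SEMA4A, SEMA4C, SEMA4F and SEMA4G, all between -0.06 and 0.02. SEMA7A, which is anchored by a lipid and binds PLXNC1 and integrins, differed by -0.15 ± 0.08 (p = 0.0798), with 9 of 10 HR arrays under the median of LR. The close relatives of the higher genes gave SEMA5B -0.07 ± 0.07, SEMA6B -0.05 ± 0.09, SEMA6C -0.06 ± 0.08 and SEMA6D 0.07 ± 0.12 in their brightest probe sets. The other kept probe sets gave 0.21 ± 0.20 and 0.45 ± 0.22 for SEMA6D and -0.17 ± 0.12 for SEMA6B. SEMA3B, SEMA3D and SEMA3F were below the filter.

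**Figure D3:**
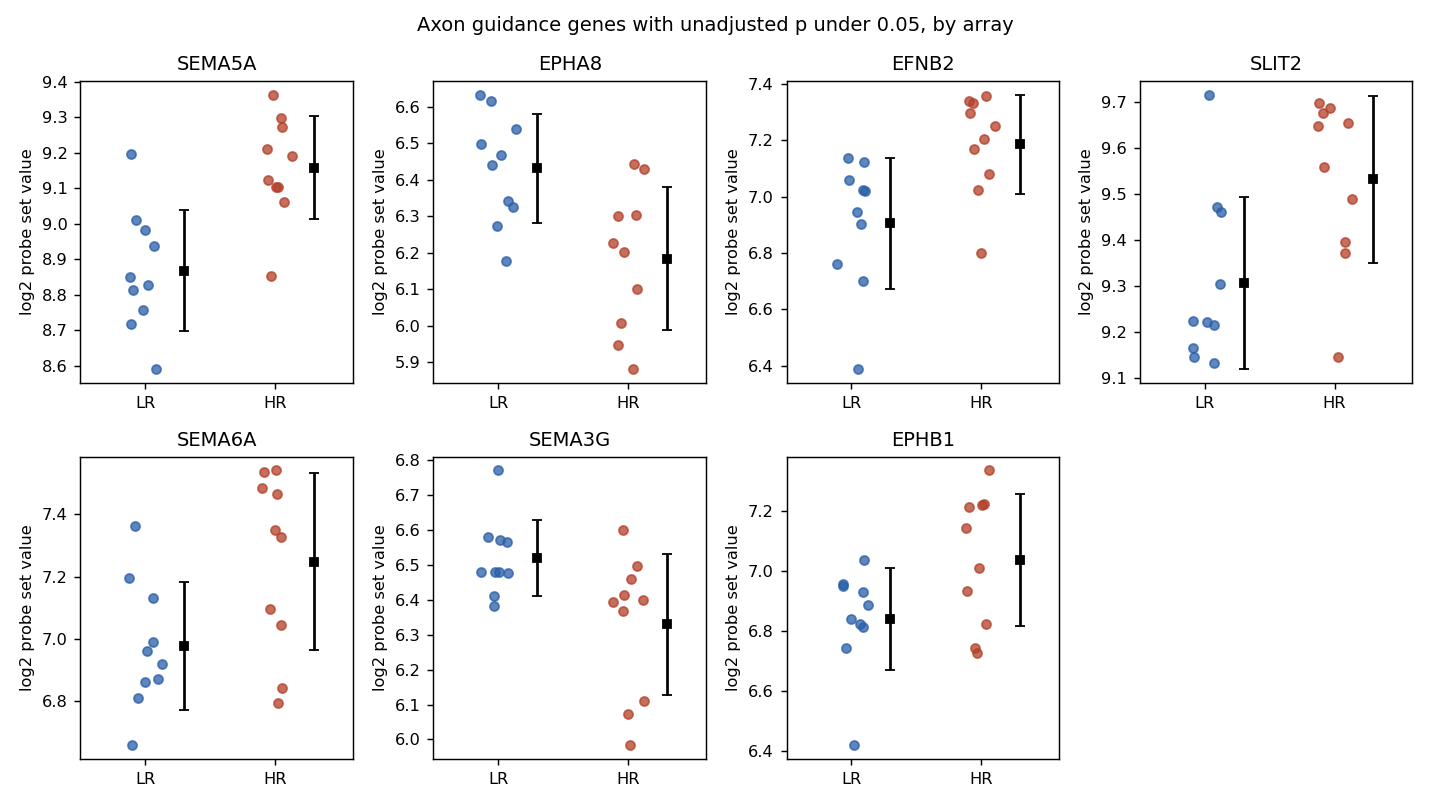
Log2 probe set values (y axis) of the 7 genes with an unadjusted p under 0.05, with 1 point for each array in LR (blue) and HR (red) and black squares for the mean with SD (n = 10). The groups overlap in every panel; SEMA5A has 6 LR arrays below the lowest HR array.

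Of the plexins, the main semaphorin receptors, all 8 named genes passed the filter. In the brightest probe sets 0 had an unadjusted p under 0.05 (limma), and the differences ran from -0.12 to 0.05 log2 with a median of -0.03. PLXNA1 had the largest, at -0.12 ± 0.10. Of the 15 other kept plexin probe sets 3 had an unadjusted p under 0.05, and of all 23861 kept probe sets 11.5% had one. The 3 were 1 of PLXNA1 at -0.18 ± 0.07 (p = 0.0274) and 2 of PLXNA4 at 0.19 ± 0.09 (p = 0.0421) and 0.17 ± 0.08 (p = 0.0438). The receptors of SEMA6A, PLXNA2 (-0.05 ± 0.09) and PLXNA4 (0.05 ± 0.08), had 95% intervals from -0.24 to 0.14 and from -0.12 to 0.21 in their brightest probe sets. PLXNB3, which binds SEMA5A, was at -0.06 ± 0.08, with an interval from -0.23 to 0.11. PLXNB1 (-0.02 ± 0.08), PLXNB2 (0.01 ± 0.09) and the SEMA3E receptor gene PLXND1 (-0.03 ± 0.12) also lay within the spread of the arrays. PLXNC1 gave 0.0029 ± 0.08 in its brightest probe set and 0.22 ± 0.20 and 0.30 ± 0.16 in its 2 other kept ones, all of the same sign.

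The neuropilins, co-receptors for class 3 semaphorins and for VEGF, had the higher mean in HR in all of their probe sets, although neither gene had an unadjusted p under 0.05 in the brightest one. NRP1 differed by 0.12 ± 0.07 (p = 0.0862), and its 4 other pig probe sets by 0.03 to 0.47 log2. A mouse microRNA probe set to which the annotation gives the NRP1 symbol was at 0.10 ± 0.13. NRP2 differed by 0.03 ± 0.06 (p = 0.671), and its 7 other probe sets by 0.02 to 0.36. The probe sets with the largest shifts were dimmer than the brightest one, with 7.77 in HR and 7.30 in LR for NRP1 (p = 0.0157) and 6.78 and 6.42 for NRP2 (p = 0.0192). A further probe set of each gene gave 0.32 for NRP1 (p = 0.00263) and 0.34 for NRP2 (p = 0.00247). These probe sets were singled out after their values were seen.

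In the ephrin and Eph system the B-type ligand EFNB2, which binds EphB receptors and EPHA4, had values from 6.80 over a median of 7.23 to 7.36 in HR and from 6.39 over 6.98 to 7.14 in LR. Above every LR array lay 7 of 10 HR arrays, and below every HR array 3 LR arrays. Means were 7.19 ± 0.18 (HR) and 6.91 ± 0.23 (LR; SD, n = 10 each), with a difference of 0.28 ± 0.09 log2 or a fold of 1.21 (p = 0.00577, adjusted p = 0.312). Its second probe set differed by 0.19 ± 0.09 (SE). The 2 other B-type ephrins were at 0.04 ± 0.09 (EFNB1) and -0.04 ± 0.10 (EFNB3) in their brightest probe sets. Their other kept probe sets gave 0.03 ± 0.07, -0.15 ± 0.08 and -0.20 ± 0.10 for EFNB1 and 0.07 ± 0.09 for EFNB3. The probe sets of each of these genes thus disagreed in sign.

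EPHB1, a receptor for B-type ephrins that steers retinal axons in mice, had values from 6.72 over 7.08 to 7.33 in HR and from 6.42 over 6.86 to 7.04 in LR. Above every LR array lay 5 HR arrays, and the other 5 overlapped with LR. The difference was 0.20 ± 0.09 (p = 0.0382, adjusted p = 0.410), and the other probe sets gave 0.25 and 0.16. The p was under 0.05 in 11 of the 20 fits that left out 1 array and reached 0.0848 without LR replicate 10, where the difference was 0.15. That array stood apart at 6.42, with the next LR array at 6.74. Of the other EphB receptors EPHB4, which pairs with EFNB2 in vessels, was at -0.13 ± 0.07 (p = 0.0922), EPHB2 at -0.06 ± 0.09, EPHB3 at -0.07 ± 0.09 and EPHB6, which has no active kinase, at -0.07 ± 0.08.

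EPHA8, a receptor for A-type ephrins, had values from 5.88 over a median of 6.21 to 6.44 in HR and from 6.18 over 6.45 to 6.63 in LR. Each of the 10 HR arrays was under the median of LR, and 4 were under every LR array. The difference was -0.25 ± 0.08 log2 (p = 0.00556, adjusted p = 0.309), so HR was lower by a fold of 1.19. The second EPHA8 probe set did not show it, at 0.01 ± 0.08. In the brightest probe sets 6 of 7 measured EphA receptors were lower by sign, with a median of -0.10. They included EPHA6 (-0.10 ± 0.07), EPHA2 (-0.11 ± 0.08) and EPHA7 (-0.14 ± 0.19), while EPHA5 (-0.0036 ± 0.08) and EPHA10 (-0.02 ± 0.08) lay at 0. The other kept EPHA7 probe set gave 0.11 ± 0.20. EPHA4, which binds both ephrin types and acts at hippocampal synapses in mice, was at 0.10 ± 0.08. The A-type ephrins gave 0.10 ± 0.11 for EFNA5, -0.07 ± 0.09 for EFNA3 and -0.03 ± 0.09 for EFNA1. EFNA4, EPHA1 and EPHA3 were below the filter.

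Of the SLIT ligands SLIT2 had values from 9.15 over a median of 9.60 to 9.70 in HR and from 9.13 over 9.22 to 9.72 in LR. The ranges were nearly the same, but 9 of 10 HR arrays exceeded the LR median. HR replicate 1 sat with the low LR arrays, and LR replicate 10 was the highest of all. The difference was 0.23 ± 0.08 log2 or a fold of 1.17 (p = 0.0134, adjusted p = 0.344), and the much dimmer second probe set gave 0.12 ± 0.14. SLIT1 was at -0.12 ± 0.09 and SLIT3 at -0.08 ± 0.07. The other kept SLIT1 probe sets gave 0.05 ± 0.10, -0.14 ± 0.10 and -0.36 ± 0.24. Among the receptors ROBO1 was at 0.03 ± 0.11, ROBO2 at -0.11 ± 0.10 and ROBO4, a ROBO of endothelium, at -0.11 ± 0.07, and ROBO3 was below the filter.

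NTN4, a netrin of basement membranes, was at 0.23 ± 0.11 (p = 0.0556), with means of 6.69 ± 0.22 (HR) and 6.47 ± 0.29 (LR; SD, n = 10 each). Its second probe set, below the filter, gave 0.21. NTN1 (0.02 ± 0.08) and the netrin receptor DCC (-0.01 ± 0.10) stayed within the spread in their brightest probe sets. Their other kept probe sets gave -0.08 ± 0.15 and -0.08 ± 0.08 for NTN1 and 0.22 ± 0.23 for DCC. In their brightest probe sets all 4 measured UNC5 genes were lower by sign, from UNC5A at -0.13 ± 0.10 over UNC5D (-0.08 ± 0.10) and UNC5B (-0.07 ± 0.10) to UNC5CL at -0.05 ± 0.08. The other kept probe sets gave 0.05 ± 0.16 for UNC5D and 0.06 ± 0.10, 0.04 ± 0.08 and -0.13 ± 0.10 for UNC5B. UNC5CL has no netrin-binding part and is a member by its symbol only. UNC5C was below the filter. EFNB3 and NTN1 lie on chromosome 12, which carries the coping behavior locus. In the Sscrofa11.1 annotation EFNB3 is separated from ATP1B2, a gene the study places in that locus, by 2 protein-coding genes, and NTN1 by 37.

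The members nearest to the filter level were EFNA5 (5.79), EPHA2 (5.79) and UNC5CL (5.95) on its upper side and UNC5C (5.43) and EPHA1 (5.42) on its lower side. The filter level marks the median probe set and says nothing on detection, and the study's detection calls were not used here. The 8 genes below it differed by -0.15 (SEMA3B) to 0.18 (EPHA3).

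The members that varied most over the 20 arrays were EPHA7 with an SD of 0.45 log2, SEMA3E (0.36), SEMA3C (0.35), SEMA3A (0.31) and NTN4 (0.28). EPHA7 ran from 8.23 over 8.91 to 10.1 in HR and from 8.63 over 9.10 to 9.74 in LR. SEMA3E, a ligand of PLXND1, ran from 6.42 over 7.04 to 7.92 in HR and from 6.86 over 7.12 to 7.57 in LR. HR replicate 5 was the highest HR array for EPHA7, SEMA3A, SEMA3C and SEMA3E. The groups overlapped for all of them. NTN4, whose difference is given above, had 4 LR arrays below every HR array, and its p was under 0.05 in 7 of the 20 fits that left out 1 array.

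Much of the variation of the members followed the first component of the whole array. Relations of each member with 4 array measures were computed, 232 in all, with 100000 permutations. Of 58 members, 45 passed an adjusted p of 0.05 in both Pearson's r and Spearman's rho with the first component, which was computed from these probe sets among others. Falling along it were 32 genes, with r from -0.92 to -0.52, among them 7 of 8 plexins, 10 of 17 semaphorins and 4 of 5 EphB receptors. Rising were 13 genes, with r from 0.57 to 0.88, among them EPHA4, EPHA5, EPHA7, ROBO1, DCC, SEMA6D and SLIT2. EFNA3 was at one end (r = -0.924, rho = -0.923, permutation p = 1e-05 for each, the smallest the permutations can give, adjusted p = 0.000178 and 0.000516), with r = -0.931 within HR, -0.932 within LR and -0.870 without the 2 farthest arrays. EPHA4 was at the other end (r = 0.884, rho = 0.899, permutation p = 1e-05 for each, adjusted p = 0.000178 and 0.000516), with r = 0.930 within HR, 0.796 within LR and 0.835 without the 2 farthest arrays. Over all named genes 74.9% had an r above 0.5 in size, against 82.8% of the members, so most of this is shared with the arrays at large. The 32 falling genes had a median difference of -0.06 log2 with 28 lower in HR, and the 13 rising genes a median of 0.03 with 8 higher.

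**Figure D4:**
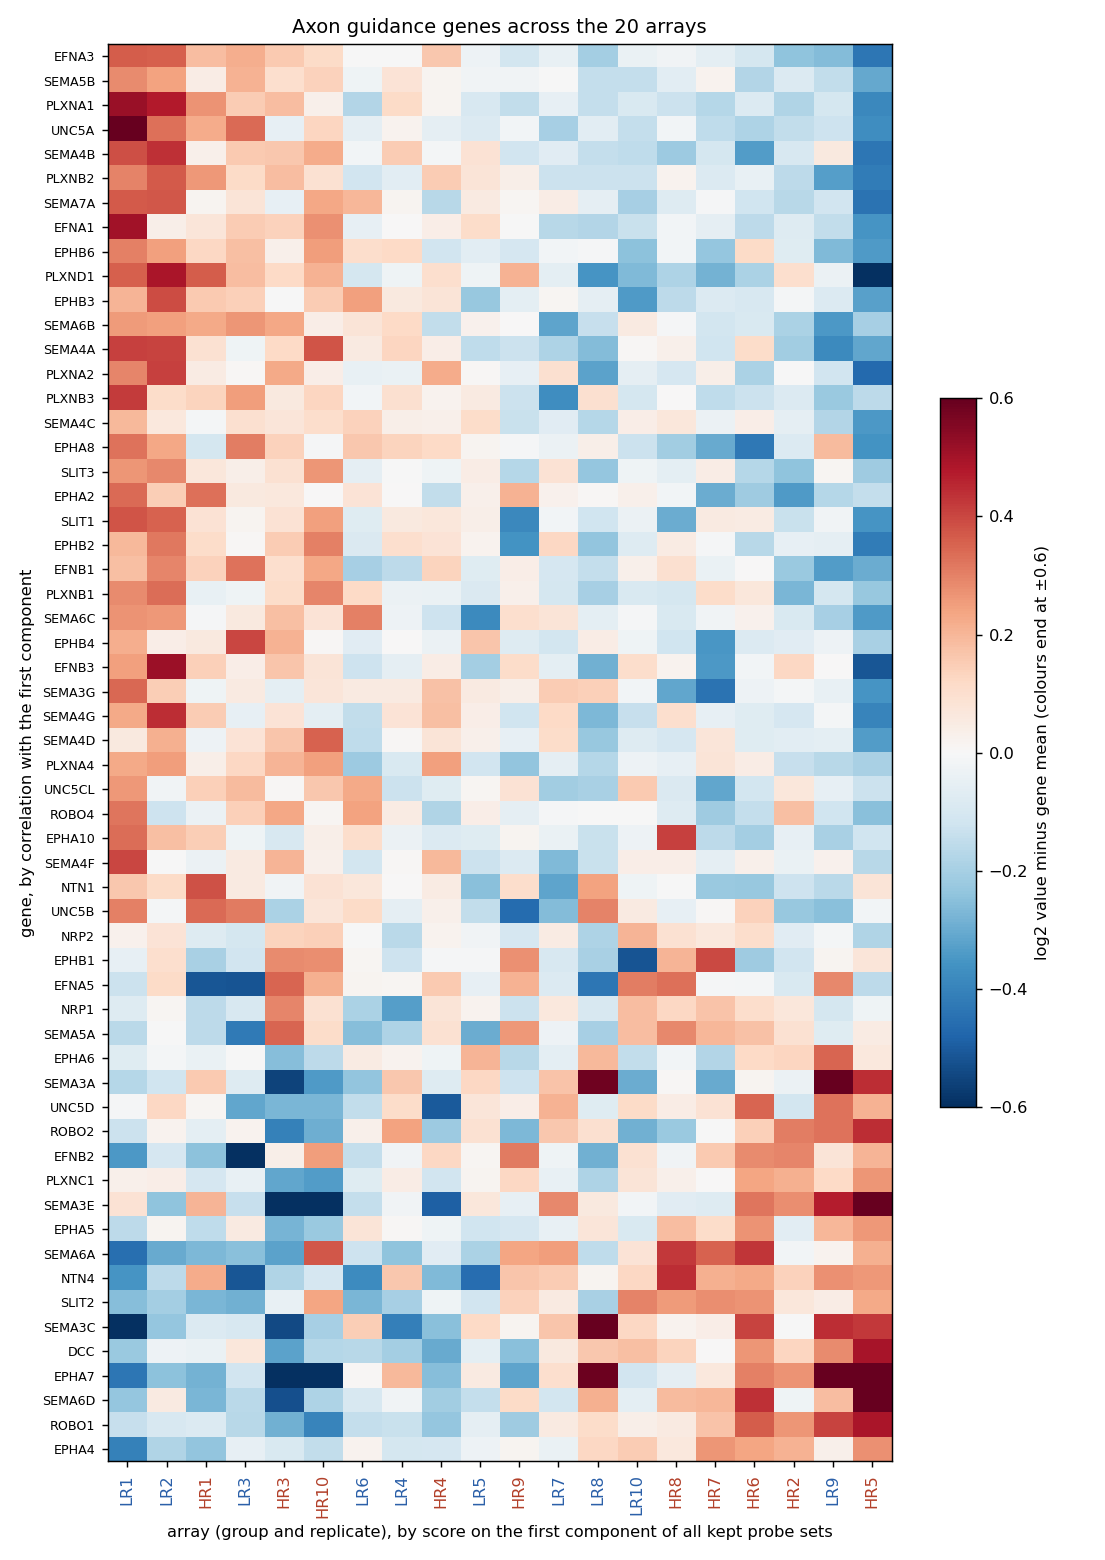
Log2 value minus the gene's mean (colour, ending at ±0.6) of the 58 genes (y axis, by correlation with the first component) on the 20 arrays (x axis, by score on that component; HR names red, LR names blue). The genes in the upper rows go from high on the left to low on the right and the lowest 13 mostly the other way, with HR and LR arrays on both sides.

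Relations with the GC-rich background level were called for 31 members, 23 positive and 8 negative. The median r was 0.48 for the members and 0.30 for all named genes. An r above 0.5 in size was found for 63.8% of the members and 66.8% of all named genes. SLIT2 had the strongest negative one (r = -0.861, rho = -0.839, permutation p = 1e-05 and 2e-05, adjusted p = 0.000178 and 0.000516), with r = -0.792 within HR, -0.853 within LR and -0.862 without the 2 farthest arrays. SEMA6A (r = -0.774), EFNB2 (r = -0.747) and SEMA5A (r = -0.661) were also negative, and EPHA8 (r = 0.706) and SEMA3G (r = 0.686) positive. All of these passed the adjusted threshold with permutation p of 0.00011 to 0.00172 for r. Of the 7 genes with a small unadjusted p only EPHB1 had no such call (r = -0.244, permutation p = 0.301). Within HR and within LR the sign was kept for all but EPHB1, with r between -0.42 and -0.90 for the negative genes and between 0.53 and 0.73 for the positive ones. For the choroid plexus and oligodendrocyte markers the share of all named genes with a call was not computed. Whether the members differ from other genes in this was therefore not tested. With the choroid plexus markers 0 members had a call, and with the oligodendrocyte markers 7 had one. The latter were SEMA4B, SEMA4D, SEMA5B, SEMA7A and SLIT3 on the positive side, with r from 0.515 to 0.647, and NTN4 and PLXNC1 on the negative side, with r = -0.534 and -0.589 (permutation p for r of 0.00214 to 0.0206, adjusted p of 0.00801 to 0.0498). Each kept its sign within HR and within LR, though SLIT3 had r = 0.810 in HR and 0.225 in LR. The summed level of these markers, 7 of 8 listed, was 11.04 ± 0.11 in HR against 11.07 ± 0.12 in LR (SD over 10 arrays).

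Some other marker lists differed more between the groups than the oligodendrocyte list. The choroid plexus list had a difference of 0.23, with an SD of 0.73 in HR and 0.61 in LR. The mean of the striatum and amygdala markers (3 of 5 measured) ran from 6.49 to 7.07 log2 in HR and from 6.74 to 7.22 in LR, a difference of -0.18. That of the ependyma markers (3 of 5) ran from 7.33 to 7.50 in HR and from 7.03 to 7.43 in LR, a difference of 0.13. Neuron markers (8 of 8) and markers of meninges and fibroblasts (5 of 5) each differed by 0.10, with overlapping groups. Within these last 3 lists genes went both ways. Examples are CCDC39 (0.44) and FOXJ1 (-0.11) for ependyma, LUM (0.45) and COL1A1 (-0.14) for meninges, and NEFM (0.48) and MAP2 (-0.10) for neurons. Their part in the members' differences was not tested.

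The 4 array measures and the title number were entered as covariates. SEMA5A kept an unadjusted p under 0.05 in each of 14 alternative models and filters, with differences of 0.21 to 0.36 log2. It was at 0.21 ± 0.09 with the title number (p = 0.0320) and 0.21 ± 0.07 with the GC-rich background level (p = 0.00843). The other 6 genes had p above 0.05 under both. SEMA6A went from 0.27 to 0.05 ± 0.11 with the title number and 0.10 ± 0.09 with the background level, SLIT2 from 0.23 to 0.07 ± 0.09 and 0.08 ± 0.06, and EFNB2 from 0.28 to 0.13 ± 0.11 and 0.15 ± 0.08. EPHA8 went to -0.15 ± 0.10 and -0.15 ± 0.07, and SEMA3G to -0.09 ± 0.09 and -0.10 ± 0.07. EPHB1 kept its size, at 0.18 ± 0.11 and 0.19 ± 0.10. With the first component as a covariate 6 of the 7 genes kept an unadjusted p under 0.05, and 5 other members entered. The exception was SEMA6A at 0.18 ± 0.09 (p = 0.0510). With the GC-rich background level EPHA7, PLXNB2 and UNC5D entered, and with the title number SEMA3C did. The share of all named genes with such a p was not counted under these models. With the average of all kept probe sets of a gene in place of the brightest, EPHA8 (-0.12), SEMA3G (-0.13) and SLIT2 (0.17) had p above 0.05, and NRP1 entered with p under 0.05.

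**Figure D5:**
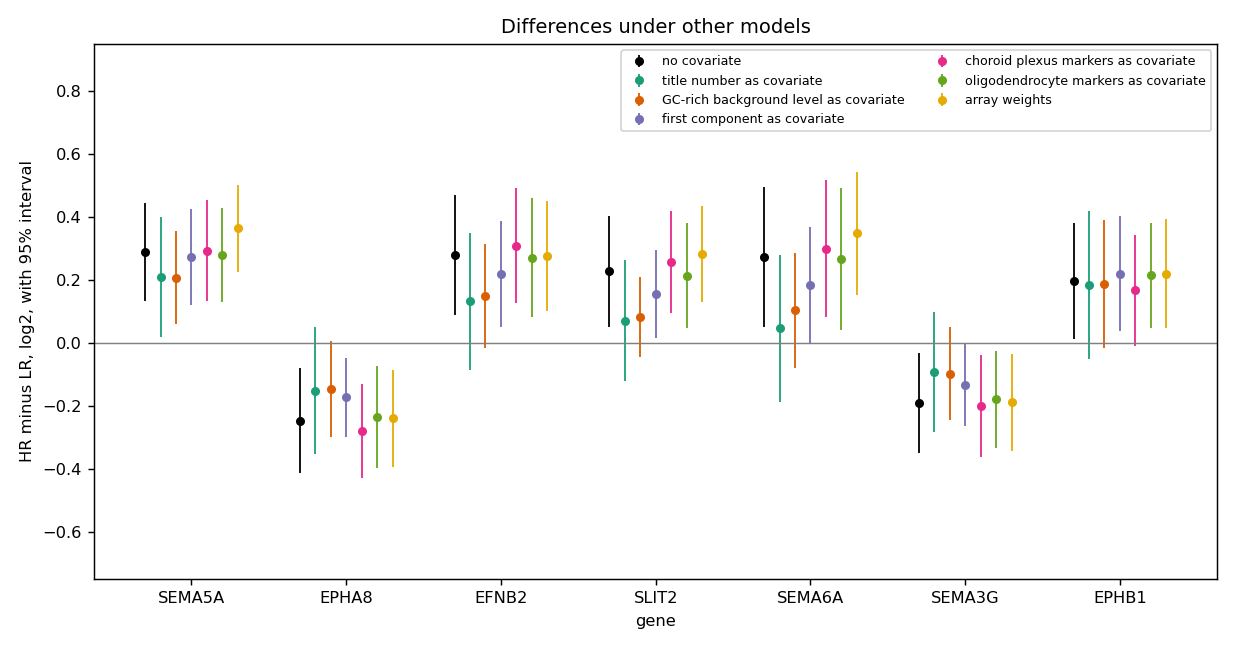
Difference HR minus LR in log2 with its 95% interval (y axis) for the 7 genes (x axis) without a covariate (black), with each of 5 covariates, and with array weights. SEMA5A stays between 0.21 and 0.36 with intervals above 0, while SEMA6A and SLIT2 drop to 0.05 and 0.07 with the title number.

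Genes that carry the signal inside the cell were compared as a list of their own. Of 55 listed effectors 47 were measured, of which 28 were higher and 19 lower in HR by sign with a median of 0.02 log2. Among them 4 (8.51%) had an unadjusted p under 0.05, 2 in each direction, which is a smaller share than the 10.5% of all named genes, and 0 passed the adjusted threshold over all probe sets (limma). Higher were CHN2, a GTPase-activating protein for Rac (0.26 ± 0.07, p = 0.000758, adjusted p = 0.275), and the kinase gene PAK2 (0.50 ± 0.18, p = 0.00969). Lower were DPYSL4, a collapsin response mediator (-0.21 ± 0.08, p = 0.0120), and PAK1, another kinase downstream of Rac (-0.19 ± 0.08, p = 0.0318). CHN2 ran at 9.99 in HR and 9.73 in LR. Of 24 further guidance ligands, receptors and adhesion molecules 22 were measured, 10 higher and 12 lower by sign with a median of -0.02. The chemokine gene CXCL12, higher in HR by 0.53 ± 0.09, was the 1 gene of this list at an unadjusted p under 0.05 (adjusted p = 0.126). That is 4.55% of the measured genes of the list, a smaller share than the 10.5% of all named genes. NTNG1 (0.16 ± 0.09), NTNG2 (-0.13 ± 0.08) and CHL1 (-0.23 ± 0.16) followed with p above 0.05.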

How the data were processed

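Per the study's methods, amplified cDNA from hippocampus was fragmented, labelled with biotin and hybridised, with 1 array for each pig. The authors made the deposited log2 values by RMA (robust multichip averaging), which subtracts background, equalises the distributions of the arrays and summarises each probe set, so a shift shared by most transcripts cannot be seen. The submitters' processing notes name GCOS 1.1.1. Values ran from 0.687 to 14.4, and array medians from 5.48 to 5.57. Arrays carry no read depth, and their number limits the precision. A probe's brightness depends on its sequence, so levels were not compared between genes.

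Without 123 controls, 47722 probe sets remained, of which 23861 with a 20-array mean over 5.53, the median of such means, entered the tests. Gene symbols came from the platform annotation, where 26426 probe sets had 1 symbol, 0 several and 21296 none. Some symbols are old. Of the sample columns 0 were left unused. No table given here holds sequences of these genes or probes, and none is printed.

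HR and LR, as the labels give them, were compared with limma 3.58.1 (lmFit, eBayes) in R 4.3.3, two-sided, with p-values adjusted by Benjamini and Hochberg over these probe sets, a threshold of 0.05 and no covariate. Differences are HR minus LR with SE. Nothing in the labels pairs the arrays, and each is taken as a separate animal, as the methods describe. GC-rich background controls were the 24 with 18 or more G or C bases. Correlations used 100000 permutations. Alternatives were 2 other filters, 2 ways to treat probe sets of a gene, 3 tests, 5 covariates, centring, and arrays left out. The members, lists and tests were chosen with earlier results of these data known. Members with an unadjusted p under 0.05, up to 4 members per family with the smallest p, the 5 with the largest SD, those next to the filter level, and up to 4 genes of each pathway list were named by rule, and all other members by family. On simulated independent values for 23861 probe sets, the fit found 75 of 100 shifts of 0.5 log2, 97 of 100 shifts of 1 log2 and 9 false ones. Real arrays share variation, which the simulation leaves out. Both simulated shifts are larger than any difference of a member (-0.25 to 0.29 log2), so the simulation does not show what the fit finds at those sizes.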

Additional observations from a re-analysis of the deposited data

Results flagged for a closer look

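In 116 groups tested (58 genes in HR and in LR), 7 had an array that stood apart from the other 9 of its group by a gap too large for its range (Dixon's 95% critical value for 10 samples). Chance flags about 1 in 20 groups. LR replicate 1 was the highest LR array for EFNA1 (7.60 against 7.25 for the next, a gap of 0.517 of the range), SEMA3G (6.77 against 6.58, 0.494) and SEMA4F (7.34 against 6.99, 0.522). HR replicate 5 was the lowest HR array for SEMA4C (6.04 against 6.25, 0.469) and SEMA4G (6.70 against 6.98, 0.485). These arrays are the low and the high end of the first component. LR replicate 10 was the lowest LR array for EPHB1 (6.42 against 6.74, 0.524) and LR replicate 9 the highest for ROBO1 (8.80 against 8.51, 0.510).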

How the results depend on the processing

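No paired analysis was possible because the labels give no number that pairs HR with LR pigs. None of the 7 genes changed direction under any alternative run. Over all probe sets the count past the adjusted threshold went from 0 to 2 with 1 probe set per gene, 947 with array weights, 2 with the choroid plexus markers and 1 with the first component as covariate, and ran from 0 to 110 when 1 array was left out, the 110 being without HR replicate 1. For the axon guidance genes it went from 0 to 3 with array weights (SEMA5A, SLIT2 and SEMA6A), and ran from 0 to 1 with 1 array left out (SEMA5A without HR replicate 1). The count of members higher at an unadjusted p went from 5 to 3 by the exact Wilcoxon test, 1 once the title number was a covariate and 2 once the GC-rich background level was, and was 4 to 6 with 1 array left out. The count of lower ones went from 2 to 0 with the average of all kept probe sets, 5 with array weights, 1 with the title number (SEMA3C, with EPHA8 and SEMA3G lost), 4 with the choroid plexus markers and 6 with the first component, and was 2 to 4 with 1 array left out, with 4 without HR replicate 3, HR replicate 10 or LR replicate 10. The share of all named genes with an unadjusted p under 0.05 was not counted in these runs, so these counts have no background beside them. The causes were not tested. The median of the semaphorins turned to 0.0363 log2 (title number), 0.0240 (GC-rich background level) and 0.00991 (first component), and was -0.0022 without the 2 arrays at the ends of that component. The UNC5 median turned to 0.0534 and 0.0429 with the first 2 of these covariates and the SLIT median to 0.0338 with the first. With 1 array left out the medians of plexins (-0.05 to 0.01), A-type ephrins (-0.06 to 0.03) and netrins and DCC (-0.01 to 0.05) also changed sign.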

Other observations

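Spread within a group differed between HR and LR for some members, given here as values and chosen after they were seen. SEMA3E had an SD of 0.48 log2 in HR and 0.21 in LR, SEMA6D 0.35 and 0.15, and PLXNC1 0.22 and 0.09 (n = 10 each). HR replicate 5 was the highest HR array for SEMA3E and SEMA6D. LR replicates 8 and 9 were the highest LR arrays for SEMA3C and EPHA7 respectively, at 7.07 and 9.74. A difference in spread was not tested.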
